A study of Schizosaccharomyces pombe with 32 samples.

Results

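The change described here is the second step of nitrogen starvation in the fission yeast Schizosaccharomyces pombe, the 3 h arrays minus the 1 h arrays. Of the 32 two-colour arrays of the series, 8 entered this difference, the 4 labelled 3 h and the 4 labelled 1 h. They were picked by their labels, and earlier results of these data were known when this choice was made. They form 4 pairs, each from 1 array series, and an array series is a run of array numbers that covers all hours of a time course. In 2 series, cells of the strain labelled L972 were starved without pheromone. In the other 2, cells of the strain labelled CRL672 were starved in the presence of synthetic P-factor at 0.5 ug per ml. Strain and P-factor changed together and cannot be told apart, and the labels name CRL672 without its genotype. All cultures grew in the rich medium YES and were then washed into EMM2, a minimal medium, with its nitrogen source left out. Each array carried polyA RNA of starved cells in Cy5 and that strain's growing cells in Cy3, so each value is a ratio of starved over growing cells, taken as log2. The 2 series of a condition are called series 1 and series 2, numbered by accession order, and the labels do not say whether they came from separate cultures. The p-values come from 1 fit to all 32 arrays and therefore measure the spread between these arrays, which may be technical.

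Fission yeast cells that run out of nitrogen finish the divisions already under way, stop in the G1 phase and become able to mate. Ste11, a transcription factor, turns on the mating genes and mei2, whose RNA-binding product starts meiosis. Cells also cut the supply of new ribosomes, take up other nitrogen sources and recycle their own proteins. The genes of DNA replication, of histones and of cell separation each rise at their own phase of the mitotic cycle, so their levels in a culture depend on where its cells stand in that cycle.

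Between 1 h and 3 h, 462 of the 4797 genes tested rose (9.63%) and 397 fell (8.28%), or 859 in all (17.9%), in limma at an adjusted p below 0.05 over both conditions. By at least 2-fold, 88 rose and 104 fell (4% of all genes). All 3 h arrays lay above all 1 h arrays for 257 genes (5.36%) and below them for 237 (4.94%). Every ± below is the standard error of a change in the model. The change rests on the 4 pairs for both conditions and on 2 pairs within a condition. Its standard error takes the spread from the fit to all 32 arrays, so it is not the spread of those pairs alone. For both conditions the standard error had a median of 0.17 over genes, and the median change of all genes was 0.02. Of the risen genes 414 were higher in all 4 series and 207 had no overlap between the 1 h and 3 h arrays, and of the fallen genes 366 were lower in all 4 series and 197 had no overlap (10.3% of all genes did not overlap). The same arrays made these calls, so such agreement was largely set in advance. Without series 1 or 2 of the condition without P-factor the count of called genes was 380 or 325 (8.11% or 6.94% of those tested). Without series 1 or 2 of the condition with it the count was 670 or 502 (14.3% or 10.6%). Shares in brackets after the counts of a gene list below are of its measured members, to be read against 9.63% risen and 8.28% fallen. The lists were chosen with earlier results of these data known. The arrays were slightly less spread at 3 h than at 1 h. The standard deviation over genes was 1.24 to 1.37 at 1 h and 1.20 to 1.26 at 3 h, lower at 3 h in each of the 4 pairs (exact permutation test over pairs, two-sided, p = 0.125, the smallest 4 pairs allow). Across genes, which are not independent replicates, the changes of 2 series correlated at 0.41 to 0.61 over 4698 to 4743 genes.

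**Figure D1:**
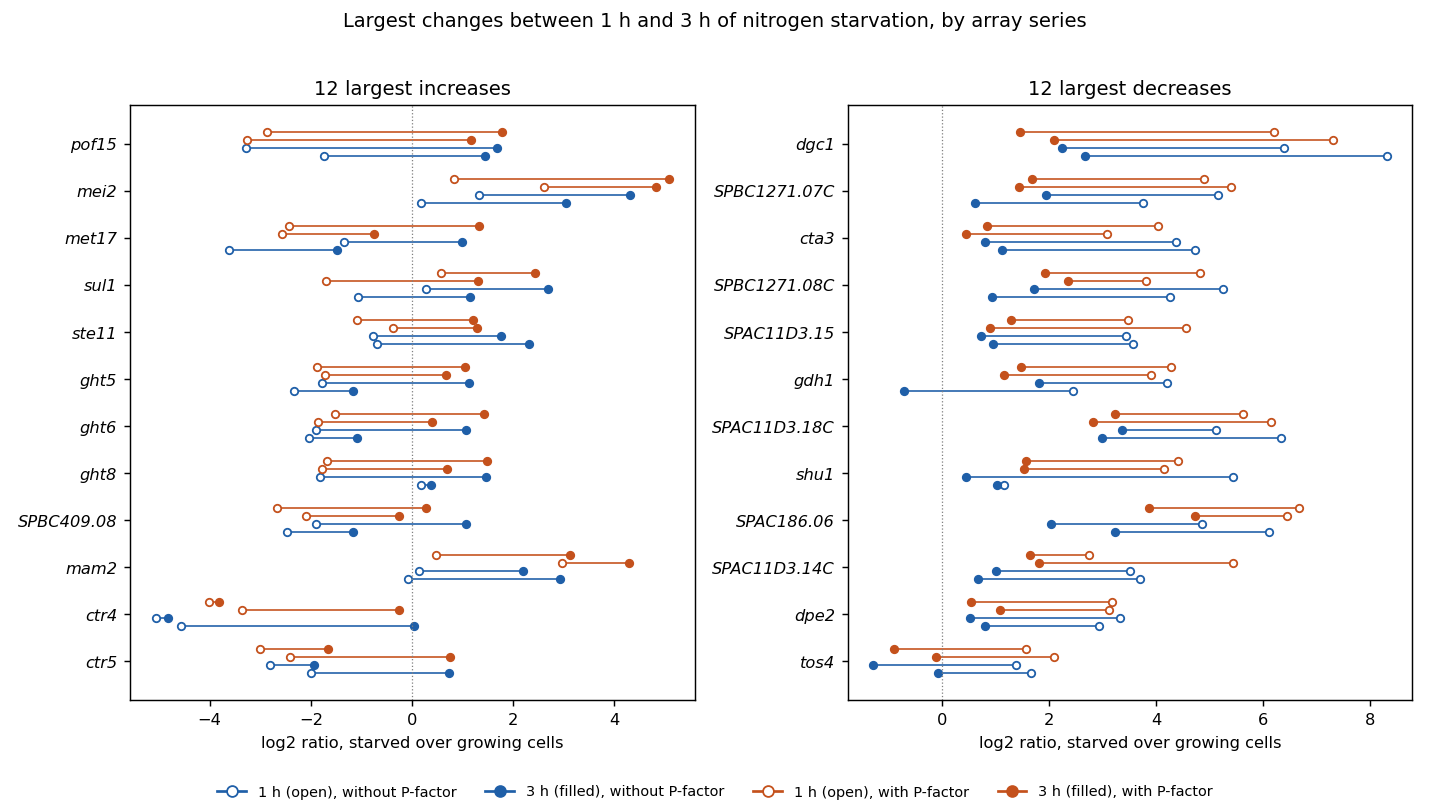
Log2 ratios of starved over growing cells for the 12 genes with the largest increases and the 12 with the largest decreases. Each line joins the 1 h array (open) and the 3 h array (filled) of 1 series, in blue without P-factor and in orange with it. For ste11 every 3 h array lies above every 1 h array, while ctr4 moved by 0.24 and 0.20 in the 2 series numbered 2, and shu1 by -0.12 in series 1 without P-factor.

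Genes of mating and of entry into meiosis held several of the largest increases. The log2 ratio of ste11 at 1 h was -0.69 and -0.76 without P-factor and -0.37 and -1.09 with it. At 3 h it was 2.31 and 1.76 without P-factor and 1.28 and 1.20 with it. Every array was thus below growth at 1 h and above it at 3 h, without overlap, and ste11 rose 5.15-fold (2.37 ± 0.15, adjusted p = 1.36e-09). The ratio of mei2 was 0.17 and 1.33 without P-factor and 2.61 and 0.84 with it at 1 h. It was 3.04 and 4.32 without P-factor and 4.82 and 5.09 with it at 3 h, with all 3 h arrays above all 1 h arrays and an increase of 3.08 ± 0.41 (adjusted p = 2.46e-05). The gene pat1 encodes the kinase that holds Mei2 inactive in growing cells, and it rose too (1.19 ± 0.22, adjusted p = 0.000874). The call of pat1 ended without series 1 without P-factor.

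The receptor for P-factor is made by M cells from mam2. Its ratio was -0.08 and 0.13 without P-factor and 2.97 and 0.47 with it at 1 h. By 3 h it had reached 2.94 and 2.19 without P-factor and 4.29 and 3.13 with it. It rose in each of the 4 series (2.26 ± 0.38, adjusted p = 0.000289), and the groups overlapped because series 1 with P-factor already stood high at 1 h. Other genes of the M-cell pheromone rose as well. mam4 encodes the enzyme that methylates M-factor, and it went from between -1.91 and -1.19 at 1 h to between -0.26 and 0.32 at 3 h without overlap (1.69 ± 0.17, adjusted p = 6.78e-07). mam1 encodes the M-factor exporter and rose by 1.63 ± 0.24 (adjusted p = 7.13e-05). Its 2 h level lay below the middle of its 1 h and 3 h levels by 1.17 (adjusted p = 0.00107). The M-factor precursor gene mfm1 rose by 1.55 ± 0.41 (adjusted p = 0.0113). It stood at 0.38 and 0.23 without P-factor and 3.66 and 0.75 with it at 1 h and at 3.73 and 1.79 without P-factor and 4.10 and 1.61 with it at 3 h, so that the groups overlapped widely. Of 36 mating and pheromone signalling genes, 9 rose (25%) and 1 fell (2.78%), with a median of 0.14. Counts of risen members were 6, 8, 6 and 8 with series 1 or 2 without P-factor, or series 1 or 2 with it, left out. Of 16 regulators of entry into meiosis, 3 rose (18.75%) and 0 fell, and the 3 were mei2, pat1 and mes1 (0.58 ± 0.15). Of later meiosis few genes were called. Of 20 genes of recombination and the chromosome axis 1 was called, rec14 (0.42 ± 0.14, adjusted p = 0.0465). Of 21 genes of telomeres, the bouquet and nuclear movement 1 was called, bqt4 (0.45 ± 0.13, adjusted p = 0.0186), which tethers telomeres to the nuclear envelope. The bouquet genes bqt1 and bqt2 were at 0.13 ± 0.23 and 0.13 ± 0.20, short of a call (adjusted p = 0.75 and 0.72). Of 109 genes named for higher transcript in meiosis, 7 rose and 6 fell, shares close to or below those of all genes. Without 1 series each, 2, 1, 4 and 2 of them rose and 3, 3, 4 and 2 fell. The call of mfm1 ended without series 1 without P-factor, and that of mes1 without series 1 without P-factor or without series 2 with P-factor. The call of bqt4 ended without either series without P-factor or without series 1 with P-factor, and that of rec14 without any 1 of the 4 series.

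The largest increase of all was that of pof15, which encodes an F-box protein, a part of ubiquitin ligases that chooses their substrates. Its ratio was -1.74 and -3.28 without P-factor and -3.26 and -2.86 with it at 1 h. By 3 h the ratio was 1.44 and 1.68 without P-factor and 1.17 and 1.78 with it. Its level crossed from below growth to above growth in all 4 series, a 19.7-fold rise (4.30 ± 0.29, adjusted p = 2.70e-09). Genes for taking up sugar were also among the 12 largest increases. The hexose transporter genes ght5, ght6 and ght8 rose by 2.35 ± 0.19, 2.28 ± 0.23 and 2.28 ± 0.35 (adjusted p = 3.24e-08, 6.62e-07 and 0.000133), and ght5 encodes the main high-affinity glucose transporter. In single series ght8 changed by 0.20 and 3.28 without P-factor and by 2.47 and 3.15 with it, so it hardly moved in series 1 without P-factor. For ght5 the 1 h ratios were -2.32 and -1.77 without P-factor and -1.73 and -1.88 with it. The 3 h ratios were -1.17 and 1.13 without P-factor and 0.68 and 1.05 with it, all above the 1 h arrays although series 1 without P-factor stayed below growth. The ght genes resemble each other in sequence, and how far a probe could also bind a relative was not tested. Of 8 ght genes measured, 3 rose (37.5%) and 1 fell (12.5%). The gene that fell was ght7 (-1.02 ± 0.28, adjusted p = 0.0143), and it changed by -1.47 and -2.22 without P-factor and by 0.13 and -0.54 with it. Its fall was called without P-factor (-1.84 ± 0.40, adjusted p = 0.00659) and not with it (-0.20 ± 0.40, adjusted p = 0.812), and the difference between the conditions was 1.64 ± 0.56 (adjusted p = 0.897). The call of ght7 ended without either series without P-factor.

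Sulphur and copper genes made up a further part of the 12 largest increases. met17 encodes the enzyme that joins sulphide to a carbon backbone on the way to methionine, and sul1 encodes a sulphate transporter. The ratio of met17 was -3.62 and -1.35 without P-factor and -2.56 and -2.42 with it at 1 h. It was -1.48 and 0.99 without P-factor and -0.75 and 1.33 with it at 3 h, a rise of 2.51 ± 0.38 (adjusted p = 0.000123), with overlap between the groups because series 1 without P-factor was low at both times. sul1 rose by 2.38 ± 0.46 (adjusted p = 0.00118). The related gene met1 rose by 1.87 ± 0.35 (adjusted p = 0.000829). The copper transporter genes ctr4 and ctr5, whose products work as 1 complex at the cell surface, rose by 2.05 ± 0.51 (adjusted p = 0.00756) and by 2.03 ± 0.32 (adjusted p = 0.000186). ctr6, for a copper transporter of the vacuole, rose by 1.57 ± 0.26 (adjusted p = 0.000222). The series differed here. In the series numbered 1, ctr4 changed by 4.62 without P-factor and by 3.12 with it, and in the series numbered 2 by 0.24 and 0.20. For ctr5 the 4 changes were 2.73 and 3.18 against 0.87 and 1.35, and for ctr6 2.01 and 2.41 against 1.16 and 0.70. In the labels the array numbers of the series numbered 2 follow on each other directly, from the condition without P-factor to the one with it. Those of the series numbered 1 lie apart from these and from each other. A cause of the split was not tested. Of 20 genes for uptake of iron, copper and phosphate, 5 rose (25%) and 4 fell (20%). Without 1 series each, in the order series 1 and 2 without P-factor and series 1 and 2 with it, 3, 3, 3 and 4 rose and 5, 0, 2 and 1 fell. Among those that fell was fio1, the iron oxidase gene of reductive iron uptake (-1.21 ± 0.28, adjusted p = 0.0048). shu1, which encodes a cell-surface protein of heme uptake, was among the 12 largest decreases (-2.64 ± 0.49, adjusted p = 0.000829). It fell from 1.16 and 5.44 without P-factor and 4.14 and 4.40 with it at 1 h to 1.03 and 0.46 without P-factor and 1.53 and 1.57 with it at 3 h, and series 1 without P-factor, low from the start, did not take part. The remaining gene of the 12 increases, SPBC409.08, has no role named here and rose by 2.27 ± 0.28 (adjusted p = 1.19e-05). The call of sul1 ended without series 2 without P-factor, and that of ctr4 without series 1 without P-factor or without series 1 with P-factor. The call of fio1 ended without series 2 without P-factor or without series 1 with P-factor.

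Genes for building ribosomes were among those that rose towards their growth level. Of 100 ribosome biogenesis genes measured, 37 rose (37%) and 0 fell, with a median change of 0.40. The median log2 ratio of the list was -2.28 and -2.21 without P-factor and -2.34 and -2.37 with it at 1 h. At 3 h it was -1.70 and -1.62, and -2.11 and -2.00. All 4 list medians at 3 h lay above all 4 at 1 h and still far below growth. The leading members were rio1, a kinase of small-subunit maturation, and nip7, utp18 and lcp5, all of rRNA processing. rio1 went from between -3.73 and -3.02 at 1 h to between -2.54 and -2.08 at 3 h (1.15 ± 0.14, adjusted p = 1.19e-05). nip7 went from between -3.96 and -3.69 at 1 h to between -3.07 and -2.23 at 3 h (1.12 ± 0.15, adjusted p = 2.25e-05). utp18 rose by 1.07 ± 0.15 (adjusted p = 5.39e-05) and lcp5 by 0.98 ± 0.15 (adjusted p = 0.00011). None of these 4 genes had overlapping arrays, against 5.36% of all genes with every 3 h array above every 1 h array. The same arrays picked these 4 for the size of their change, so this was largely set in advance. The count of risen members was 14, 12, 28 and 20 with series 1 or 2 without P-factor, or series 1 or 2 with it, left out, and 16 rose and 1 fell after quantile normalization.

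Subunits of RNA polymerases I and III, which transcribe rRNA and tRNA genes, followed with 8 of 29 risen (27.6%) and 1 fallen (3.45%). The list median was 0.19, and rpa12 (0.84 ± 0.13) and rpc11 (0.75 ± 0.14) led. The risen count was 3, 3, 4 and 4 in the fits without 1 series each, in the same order. Of 121 cytosolic ribosomal protein genes, 0 rose and 6 fell (4.96%, below the 8.28% of all genes), with a median of -0.11. The median change of its members did not have 1 sign over the series, at -0.25 and 0.28 without P-factor and -0.56 and 0.06 with it. The largest fall was that of rpp0, for a protein of the ribosomal stalk, from between -1.77 and -1.04 at 1 h to between -3.08 and -2.06 at 3 h (-1.11 ± 0.18, adjusted p = 0.000212), and rpl22 followed (-0.85 ± 0.17, adjusted p = 0.00132). After quantile normalization 23 members fell and 0 rose, and the fallen count was 2, 4, 3 and 5 without 1 series each. The other lists of translation were near the shares of all genes. Among 39 translation factors 2 rose, led by tif1102 (1.16 ± 0.16, adjusted p = 3.24e-05), and 3 fell. Of 19 tRNA ligases 2 rose and 2 fell, and of 36 mitochondrial ribosomal proteins 1 rose and 2 fell, and each of these 7 calls was lost without at least 2 of the series.

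**Figure D2:**
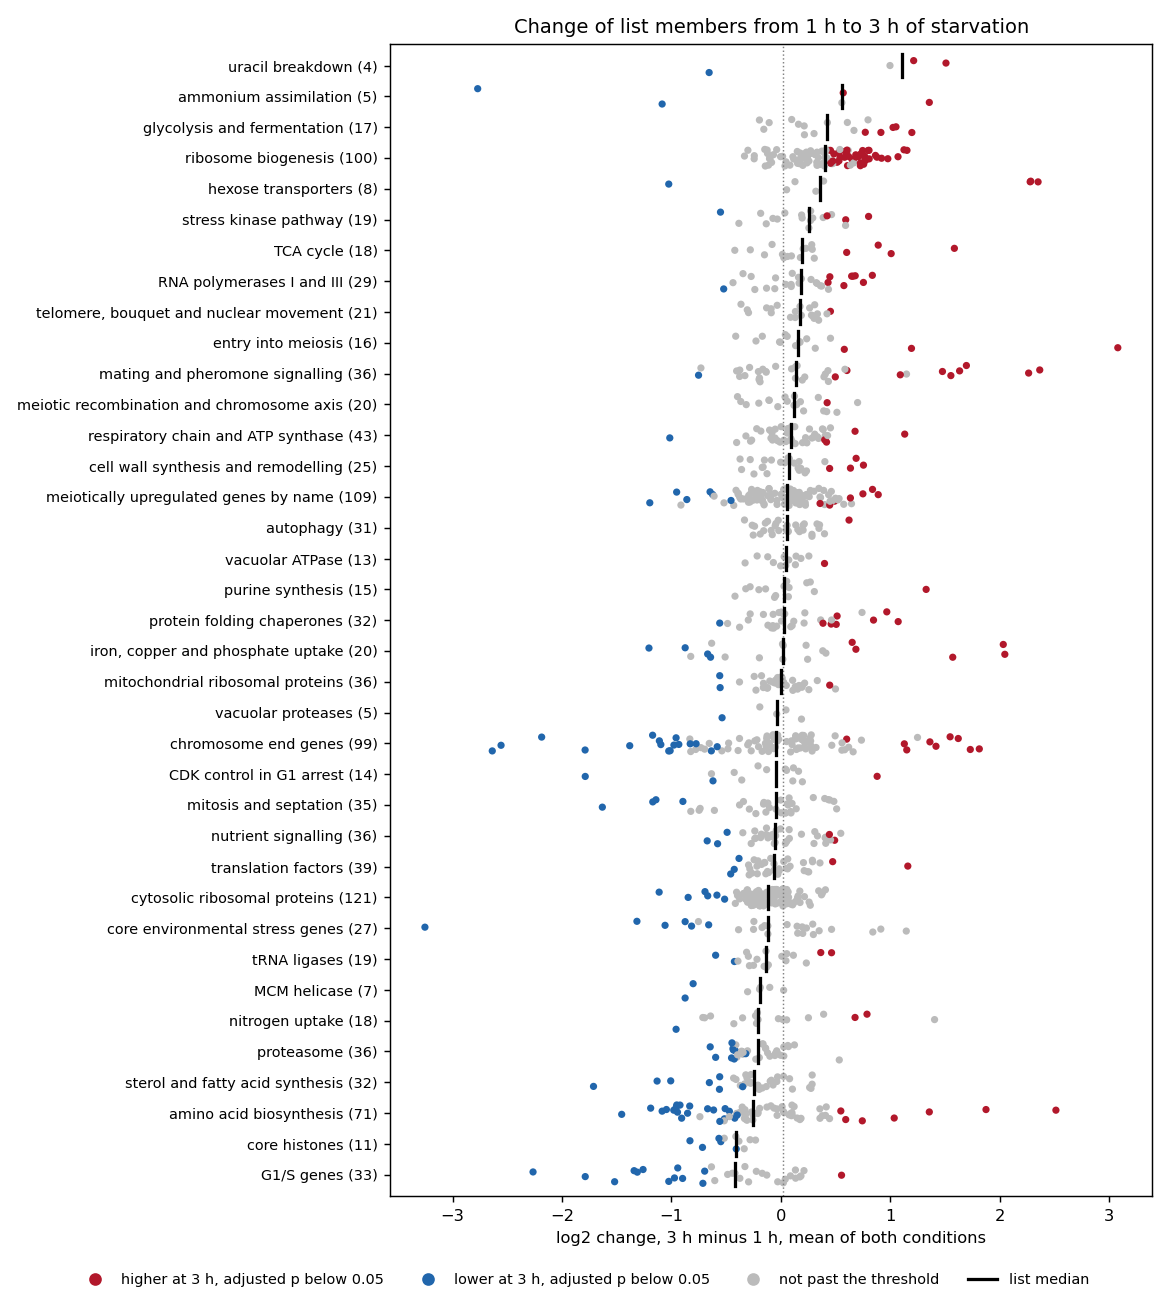
Change from 1 h to 3 h of every measured member of the gene lists, on the log2 scale as the mean of both conditions, with the number of members after each name. Red points rose and blue points fell at an adjusted p below 0.05, grey points did not pass, black bars are list medians and the dotted line is the median of all genes. The ribosome biogenesis list has 37 red points and no blue one, and the cytosolic ribosomal proteins have 6 blue points and no red one.

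The largest decrease was that of dgc1. Its ratio was 8.30 and 6.39 without P-factor and 7.30 and 6.20 with it at 1 h, far above growth in all 4 series. The 3 h values were 2.67 and 2.25 without P-factor and 2.09 and 1.47 with it. All 3 h arrays lay below all 1 h arrays, a 30.5-fold fall (-4.93 ± 0.32, adjusted p = 1.65e-09) that left the gene above growth, and most of it had taken place by 2 h, since the 2 h level lay 1.60 below the middle of the outer hours (adjusted p = 0.000892). cta3, the gene of a cation-pumping ATPase of the plasma membrane and a stress gene, kept the opposite course. It stood at 4.73 and 4.37 without P-factor and 3.09 and 4.03 with it at 1 h. It stood at 1.12 and 0.80 without P-factor and 0.45 and 0.84 with it at 3 h (-3.25 ± 0.25, adjusted p = 1.99e-08), and its 2 h level lay 1.28 above the middle (adjusted p = 0.000788). Its fall thus came mainly after 2 h.

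The genes SPBC1271.07C and SPBC1271.08C, which have no symbol in the name table, changed by -3.38 ± 0.18 (adjusted p = 1.71e-10) and -2.81 ± 0.23 (adjusted p = 4.14e-08), both lower at 3 h. At 2 h both lay above the middle of the outer hours, by 1.08 and 1.30. dpe2 fell from between 2.94 and 3.33 at 1 h to between 0.52 and 1.09 at 3 h (-2.40 ± 0.19, adjusted p = 3.24e-08). SPAC186.06, near a chromosome end, changed by -2.56 ± 0.26 (adjusted p = 1.00e-06) and was still at 2.04 to 4.72 at 3 h. SPAC11D3.15, SPAC11D3.18C and SPAC11D3.14C were also among the 12 largest decreases, at -2.79 ± 0.21, -2.70 ± 0.24 and -2.56 ± 0.34. For each of the 7 genes just named all 3 h arrays lay below all 1 h arrays, as for 4.94% of all genes. They were picked from the same arrays as largest decreases, so this was largely set in advance. The shared prefix of the last 3 locus tags led to a count made after the values were seen: of 14 measured genes with it, 6 fell and 1 rose, and the median change was -0.66. The 3 genes that gave the prefix are themselves among the 6, so the count is a description. Of all genes tested, 8.28% fell and 9.63% rose.

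Transcripts of the Tf2 retrotransposon, of which the genome holds several near-identical copies, fell as well. They lay outside the rule for naming genes and were chosen after their values were seen. Of 11 copies measured, 10 fell, with changes of -1.36 to -1.76 (highest adjusted p = 0.000515). Their mean ratios were 2.00 to 2.30 at 1 h and 0.44 to 0.73 at 3 h. The other copy, Tf2-6, was at 0.33 ± 0.14 (adjusted p = 0.123). The transcript of a copy can bind the probes of the others, so these 10 values may be 1 measurement made 10 times. For 9 of the 10 all 3 h arrays lay below all 1 h arrays, against 4.94% of all genes. As these copies were chosen for their fall and may be 1 measurement, this count is only a description.

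Of 99 genes within 100 kb of an end of chromosome I or II, 17 fell (17.2%, against 8.28% of all genes). In the same list 9 rose (9.09%, against 9.63% of all genes), and the list median was -0.04. SPAC869.01 fell from 4.47 and 5.55 without P-factor and 6.83 and 5.43 with it at 1 h to 2.46 and 2.28 without P-factor and 4.70 and 4.10 with it at 3 h (-2.19 ± 0.48, adjusted p = 0.00336). SPAC922.04 rose from between -1.11 and -0.39 at 1 h to between 0.61 and 1.43 at 3 h without overlap (1.81 ± 0.21, adjusted p = 4.24e-06). The share of the list that rose was close to that of all genes. With series 1 or 2 without P-factor, or series 1 or 2 with it, left out, 15, 6, 20 and 13 fell and 5, 5, 7 and 8 rose. Over all genes these fits called 8.11%, 6.94%, 14.3% and 10.6% in either direction. The call of SPAC869.01 ended without series 2 without P-factor.

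Of the 27 core stress genes, which rise in fission yeast under many stresses, 6 fell (22.2%) and 0 rose (median -0.12). Within the series the median change of its members was 0.17 and 0.29 without P-factor and 0.16 and -0.69 with it, so it was below 0 only in series 2 with P-factor. Beside cta3, the fallen genes included gst1 and gst2, of glutathione transferases (-1.32 ± 0.42 and -0.87 ± 0.25), and srx1, of the enzyme that restores oxidized peroxiredoxin (-1.06 ± 0.29). Their series stood apart: gst2 was at 3.30 and 5.47 without P-factor and 3.64 and 5.62 with it at 1 h. By 3 h it stood at 1.70 and 5.66 without P-factor and 2.73 and 4.43 with it. It was lower at 3 h in all series except series 2 without P-factor. The fallen count was 3, 2, 5 and 2 without 1 series each. The stress transcription factor gene atf1 was not called (0.46 ± 0.20, adjusted p = 0.126). Of 19 genes of the stress kinase pathway, 3 rose (15.8%) and 1 fell (5.26%). They were pyp1, a phosphatase gene that restrains the kinase Sty1 (0.80 ± 0.25), prr1 (0.59 ± 0.14), wis1, the kinase gene above Sty1 (0.42 ± 0.13), and mcs4, which fell (-0.55 ± 0.16), and without either series without P-factor 0 of the list passed. The calls of prr1 and mcs4 ended without either series without P-factor, and that of srx1 without series 2 without P-factor or without series 2 with P-factor. The calls of gst1 and wis1 ended without either series without P-factor or without series 2 with P-factor, and that of gst2 without series 1 without P-factor or without either series with P-factor. The call of pyp1 ended without either series without P-factor or without series 1 with P-factor.

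Genes that handle nitrogen did not move as 1 group. gdh1, of the enzyme that makes glutamate from ammonium with NADPH, was among the 12 largest decreases. Its ratio was 2.45 and 4.21 without P-factor and 3.90 and 4.28 with it at 1 h. It was -0.71 and 1.82 without P-factor and 1.16 and 1.49 with it at 3 h, lower in each series by 2.39 or more, and the fit gave -2.77 ± 0.16 (adjusted p = 1.36e-09). asn1, of asparagine synthetase, fell as well (-1.09 ± 0.15, adjusted p = 4.41e-05). Genes of the other route of ammonium assimilation rose, gln1, of glutamine synthetase, by 1.36 ± 0.30 (adjusted p = 0.003) and glt1, of glutamate synthase, by 0.57 ± 0.16 (adjusted p = 0.0179). For gln1, series 1 without P-factor moved only from 0.71 to 1.00. In the same series glt1 changed by -0.16, and its 1 h and 3 h arrays overlapped. Within a condition glt1 was not called, either without P-factor (adjusted p = 0.34) or with it (adjusted p = 0.055). Of 18 nitrogen uptake genes, 2 rose (11.1%) and 1 fell (5.56%), near the shares of all genes. In the fits without series 1 or 2 without P-factor, or series 1 or 2 with it, 1, 0, 3 and 1 rose and 1, 1, 2 and 3 fell. The 3 genes called with all series were isp4, an oligopeptide transporter gene (0.79 ± 0.19), fnx1 (0.68 ± 0.19) and cat1, of a cationic amino acid transporter, which fell (-0.96 ± 0.16, adjusted p = 0.000311). The protease gene isp6 stood at 6.23 to 6.57 at 1 h and 6.17 to 6.42 at 3 h (change -0.04 ± 0.16, adjusted p = 0.902). The amino acid permease gene isp5 was at -0.71 ± 0.40 and was not called (adjusted p = 0.245). Of 31 autophagy genes 1 was called, atg1802 (0.62 ± 0.17), and 0 fell, and of 5 vacuolar protease genes 1 fell, ape2 (-0.54 ± 0.18). The calls of fnx1 and atg1802 ended without either series without P-factor, and those of gln1 and isp4 without series 2 without P-factor or without series 2 with P-factor. The call of glt1 ended without series 2 without P-factor or without either series with P-factor, and that of ape2 without any 1 of the 4 series.

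Of 71 amino acid biosynthesis genes measured, 20 fell (28.2%) and 7 rose (9.86%), with a median of -0.26. The fallen count was 10, 14, 15 and 16 with series 1 or 2 without P-factor, or series 1 or 2 with it, left out. The largest fall was that of aat1, from between 2.10 and 2.86 at 1 h to between -0.02 and 1.98 at 3 h without overlap (-1.45 ± 0.22, adjusted p = 0.000123). It changed by -2.43 and -2.05 without P-factor and by -1.22 and -0.12 with it, so it hardly moved in series 2 with P-factor. Its fall was called without P-factor (-2.24 ± 0.32, adjusted p = 0.00012) and not with it (-0.67 ± 0.32, adjusted p = 0.218). The difference between the conditions was 1.57 ± 0.45 (adjusted p = 0.718). The largest rises were those of met17, met1 and gln1. Proteasome genes had 9 of 36 fallen (25%) and 0 risen (median -0.21), led by rpn11, of the subunit that removes ubiquitin (-0.65 ± 0.15), and scl1 (-0.60 ± 0.13). Without either series without P-factor 0 of them passed, and 4 and 2 did without series 1 and 2 with P-factor. Of 32 genes of sterol and fatty acid synthesis, 7 fell (21.9%) and 0 rose (median -0.24). Ergosterol genes led, erg31 from between -1.07 and -0.50 at 1 h to between -2.82 and -1.85 at 3 h (-1.71 ± 0.21, adjusted p = 1.02e-05), erg32 (-1.13 ± 0.14) and erg6 (-1.01 ± 0.15). The fallen count of this list was 3, 4, 5 and 4 without 1 series each. apt1, of adenine salvage, was the only one of 15 purine genes called, and it rose from between -5.00 and -3.83 at 1 h to between -3.45 and -3.02 at 3 h without overlap (1.33 ± 0.21, adjusted p = 0.000211). The call of rpn11 ended without series 2 without P-factor, and that of scl1 without either series without P-factor. Without series 1 without P-factor rpn11 could not be fitted, since series 2 has no 7 h value for it.

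Of 17 genes of glycolysis and fermentation, 5 rose (29.4%) and 0 fell (median 0.42). tdh1 and gpd3 both encode glyceraldehyde-3-phosphate dehydrogenase. tdh1 stood near growth at 1 h, at -0.23 and -0.20 without P-factor and 0.09 and -0.03 with it. It stood at 0.83 and 1.04 without P-factor and 0.93 and 1.03 with it at 3 h, above every 1 h array (1.05 ± 0.20, adjusted p = 0.00105), and gpd3 rose by 1.02 ± 0.21. The hexokinase gene hxk2 rose from between -1.28 and -0.72 at 1 h to between -0.10 and 0.07 at 3 h (0.91 ± 0.13, adjusted p = 4.20e-05), and the pyruvate decarboxylase gene pdc101 rose by 1.20 ± 0.28 (adjusted p = 0.00461). The risen count was 4, 3, 6 and 3 without 1 series each. Of 18 TCA cycle genes, 4 rose (22.2%) and 0 fell. sdh2, of the iron-sulphur subunit of succinate dehydrogenase, went from between -1.39 and -0.56 at 1 h to between 0.25 and 0.94 at 3 h (1.59 ± 0.18, adjusted p = 4.24e-06). sdh3, of the same enzyme, rose by 1.01 ± 0.21, kgd1 by 0.89 ± 0.19 and aco1, of aconitase, by 0.60 ± 0.15. Of 43 genes of the respiratory chain and ATP synthase, 4 rose (9.3%, close to the 9.63% of all genes) and 1 fell, led by cox19 (1.13 ± 0.23, adjusted p = 0.00176) and atp11 (-1.02 ± 0.19, adjusted p = 0.000809), both assembly factors. Of 32 chaperone genes, 7 rose (21.9%) and 1 fell (3.125%). ssa1 and ssa2, near-identical genes of Hsp70 proteins, stood far below growth at both times and rose by 1.07 ± 0.18 and 0.97 ± 0.13. In series 1 with P-factor they changed by only 0.22 and 0.20, and for both genes the 1 h and 3 h arrays overlapped. bip1, the Hsp70 gene of the endoplasmic reticulum, fell (-0.56 ± 0.17, adjusted p = 0.0271). The risen chaperone count was 2, 2, 6 and 4 without 1 series each, and that of the respiratory list 2, 1, 6 and 2. The call of sdh3 ended without series 2 with P-factor, and that of aco1 without either series without P-factor. The call of pdc101 ended without either series without P-factor or without series 2 with P-factor, and that of bip1 without any 1 of the 4 series.

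Of 33 genes of the G1/S step, at which DNA replication starts, 12 fell between 1 h and 3 h (36.4%) and 1 rose (3.03%). The others did not pass, the list median was -0.42, and 9 to 12 of the genes fell without any 1 series. tos4, a target of the G1/S factor MBF, was among the 12 largest decreases. Its ratio was 1.66 and 1.39 without P-factor and 2.09 and 1.58 with it at 1 h. It was -0.06 and -1.28 without P-factor and -0.11 and -0.90 with it at 3 h, lower without overlap (-2.26 ± 0.25, adjusted p = 3.01e-06). The S-phase cyclin gene cig2 fell, with a change of -1.79 ± 0.30 (adjusted p = 0.000303). cdc22, of the large subunit of ribonucleotide reductase, fell from between 1.33 and 1.91 at 1 h to between -0.09 and 0.46 at 3 h (-1.52 ± 0.24, adjusted p = 0.000217), and the replication licensing gene cdt1 fell, with a change of -1.34 ± 0.24 (adjusted p = 0.000605). Of 7 genes of the MCM helicase 2 fell, mcm2 (-0.88 ± 0.24) and mcm4 (-0.80 ± 0.21). Among 14 genes of CDK control, the mitotic inducer cdc25 rose (0.88 ± 0.15, adjusted p = 0.000395), cig2 and suc1 (-0.62 ± 0.17) fell, and rum1, of the CDK inhibitor of G1 arrest, was not called (0.20 ± 0.16, adjusted p = 0.442). The call of mcm2 ended without either series without P-factor, and that of mcm4 without series 2 without P-factor or without series 2 with P-factor. The call of suc1 ended without either series without P-factor or without series 1 with P-factor.

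The 2 h arrays, which did not enter the 3 h minus 1 h difference, showed that these genes did not all pass straight from one level to the other. The comparison was 2 h minus the mean of 1 h and 3 h, and it called 289 genes (6.02%), 109 high at 2 h (2.27%) and 180 low (3.75%). Of 33 G1/S genes, 11 were low at 2 h and 0 high. tos4 stood at -1.00 and -1.83 without P-factor and -0.70 and -0.38 with it at 2 h, below its level at either outer hour in the means, -1.52 ± 0.22 against their middle (adjusted p = 0.000193). cdc22 and cdt1 were -1.60 ± 0.21 and -1.42 ± 0.21 from theirs. The list median was 0.46 and 0.34 without P-factor and 0.51 and 0.57 with it at 1 h. It was -0.23 and -0.52, and -0.55 and -0.14, at 2 h. At 3 h it was 0.09 and -0.02, and 0.08 and -0.09, so it was lowest at 2 h in each series. The count of low G1/S members was 8, 6, 4 and 11 with series 1 or 2 without P-factor, or series 1 or 2 with it, left out. Over all genes these fits called 3.12%, 1.49%, 3.4% and 4.57% of the genes tested.

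Core histone genes took the reverse course. Of 11 measured, 9 were high at 2 h and 0 low (median departure 0.73), and 5 fell (45.5%) between 1 h and 3 h (median change -0.41). The list median was 1.70 and 1.53 without P-factor and 1.84 and 1.66 with it at 2 h, above the same series at 1 h and at 3 h in each case. htb1, of histone H2B, fell from between 1.09 and 1.48 at 1 h to between 0.35 and 0.62 at 3 h (-0.83 ± 0.16, adjusted p = 0.000972), and its 2 h departure was 0.73 ± 0.14 (adjusted p = 0.0021). hhf3, an H4 gene, changed by -0.72 ± 0.16 and departed by 0.80 ± 0.14. Some histone genes encode identical proteins, and probes may bind the transcripts of several. The high count at 2 h was 7, 6, 6 and 7 without 1 series each, and the fallen count 3, 1, 1 and 2. The call of hhf3 ended without series 2 without P-factor or without series 1 with P-factor.

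Mitosis and septation genes dipped at 2 h. Of 35 measured, 15 were low at 2 h and 0 high (median departure -0.54). The list median was 0.90 and 0.64 without P-factor and 0.90 and 0.78 with it at 1 h. It was 0.57 and -0.05, and -0.03 and 0.22, at 2 h. By 3 h it was 0.98 and 0.73, and 0.84 and 0.45, back above the 2 h value in each series. Between 1 h and 3 h 4 members fell (11.4%), adg1 (-1.63 ± 0.50), agn1 (-1.17 ± 0.38), adg3 (-1.14 ± 0.38) and klp8 (-0.90 ± 0.25, from 3 complete pairs and 1 pair with no 1 h value). agn1 encodes the glucanase that opens the septum edges at cell separation. The low count at 2 h was 11, 4, 6 and 9 without 1 series each. The 6 genes lowest at 2 h against their outer hours were uds1 (-2.33 ± 0.32), SPAC23A1.01c (-2.06 ± 0.34), SPAC1F12.06C (-1.93 ± 0.32), gas1 (-1.91 ± 0.30), cts2 (-1.88 ± 0.30) and rid1 (-1.85 ± 0.29). None of these was called between 1 h and 3 h (adjusted p = 0.143 to 0.856). gas1 encodes an enzyme that lengthens cell wall glucan, and it stood at -0.59 and -1.98 without P-factor and -0.64 and -2.21 with it at 2 h against -0.13 to 1.10 at 1 h and 0.52 to 0.68 at 3 h. Of 25 cell wall genes 6 were low at 2 h, and 4 rose (16%) between 1 h and 3 h, led by pwp1 (0.75 ± 0.14, adjusted p = 0.000689). The risen count was 3, 2, 3 and 1 without 1 series each. The call of klp8 ended without series 2 without P-factor or without series 2 with P-factor, and those of adg1 and agn1 without series 2 without P-factor or without either series with P-factor. The call of adg3 ended without either series without P-factor or without series 2 with P-factor. Of the 2 h departures, those of SPAC23A1.01c and rid1 were lost without series 1 with P-factor and that of gas1 without series 2 with P-factor.

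**Figure D3:**
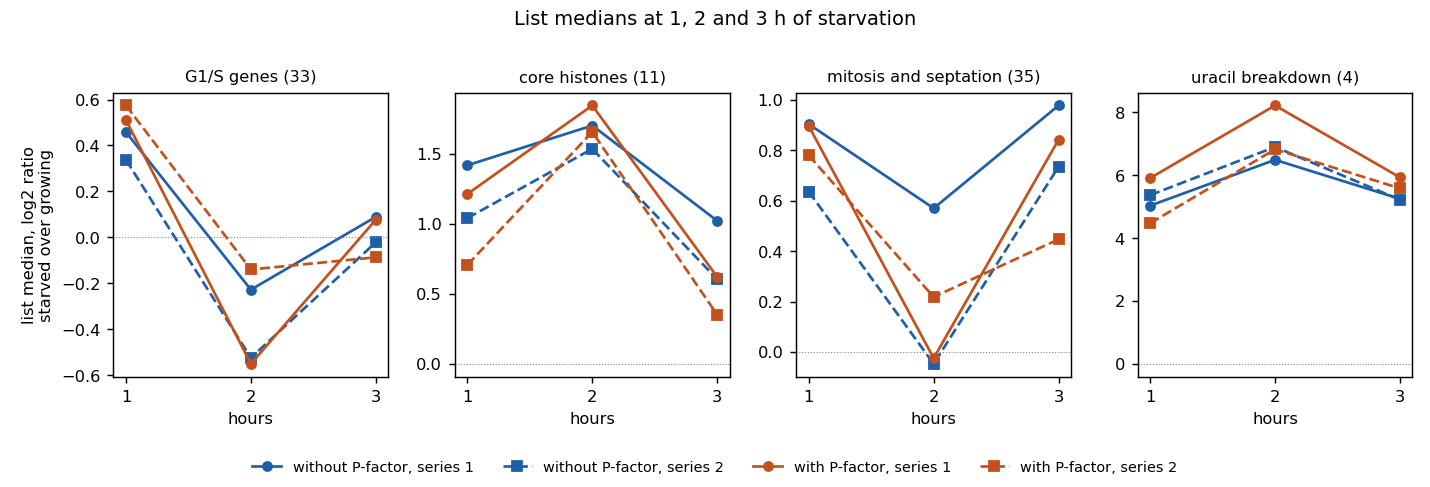
Median log2 ratio of starved over growing cells for 4 gene lists at 1, 2 and 3 h, 1 line for each array series, in blue without P-factor and in orange with it, solid for series 1 and dashed for series 2. In every series the G1/S and the mitosis and septation medians are lowest at 2 h and the core histone and uracil breakdown medians are highest at 2 h. The vertical scales differ between panels.

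The genes highest at 2 h against their outer hours were mostly genes of uracil and its nucleosides, which serve as a nitrogen source. urg3 stood at 1.76 and 1.82 without P-factor and 1.34 and 0.45 with it at 1 h. At 2 h it was at 3.70 and 4.29 without P-factor and 5.41 and 5.19 with it. At 3 h it was at 2.91 and 2.96 without P-factor and 3.23 and 2.31 with it, above all 1 h arrays and below all 2 h arrays. Its departure at 2 h was 2.55 ± 0.16 (adjusted p = 6.49e-09), and its change from 1 h to 3 h was 1.51 ± 0.19 (adjusted p = 1.40e-05). cdd1, of cytidine deaminase, behaved alike, with a departure of 2.19 ± 0.29 and a rise of 1.71 ± 0.33 (adjusted p = 0.00103). SPAC1039.02 had 2.28 ± 0.20 and 1.58 ± 0.24, urg2 had 2.22 ± 0.31 and 1.21 ± 0.36, and uck2 had 1.79 ± 0.20 and 0.81 ± 0.24. urg1 departed by 1.91 ± 0.28 and was not called between 1 h and 3 h (1.00 ± 0.35, adjusted p = 0.0573, with no 3 h value in series 1 with P-factor). urh1, of the enzyme that splits uridine, was high at 2 h as well (1.25 ± 0.18) but fell over the whole step (-0.66 ± 0.21, adjusted p = 0.0378). All 4 uracil breakdown genes were called high at 2 h, 2 of them rose between 1 h and 3 h and 1 fell. The calls of urg2 and urh1 ended without either series without P-factor or without series 2 with P-factor.

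**Figure D4:**
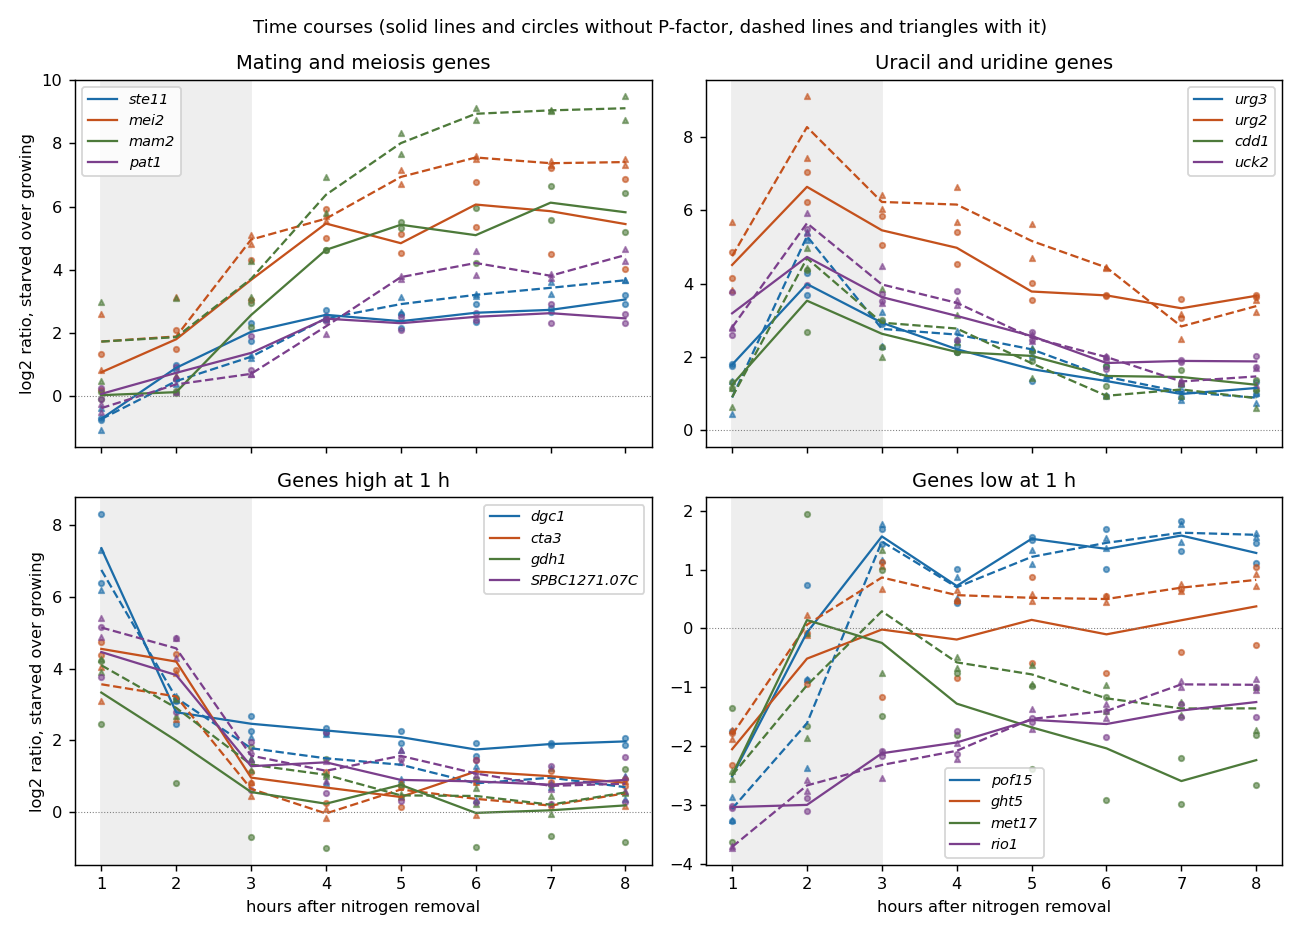
Log2 ratios of starved over growing cells from 1 h to 8 h for 16 named genes, with the step from 1 h to 3 h shaded. Points are single arrays (circles without P-factor, triangles with it) and lines join the means of the 2 arrays of a condition, solid without P-factor and dashed with it. ste11 passes from below growth at 1 h to above it at 3 h, urg3 peaks at 2 h, and dgc1 and cta3 drop towards growth.

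Most genes that rose had started below growth, and most that fell had started above it. Of the 462 genes that rose, 327 had a mean ratio below growth at 1 h (70.8%, against 50.4% of all genes tested). Of the 397 that fell, 303 had a mean above growth at 1 h (76.3%, against 49.6%). The 1 h arrays enter both measures, so an error at 1 h moves them together, and these shares are a description. The median ratio of the risen genes was -0.68, -0.29, 0.06, 0.07, 0.10, 0.06, 0.11 and 0.16 from 1 h to 8 h. For the fallen genes it was 0.65, 0.15, -0.06, 0.07, -0.07, -0.07, -0.10 and -0.14. From 3 h on both medians stayed near growth. The 2 h arrays did not enter the difference itself, but these genes were chosen for a wide gap between the outer hours. The mean at 2 h lay between the means at 1 h and 3 h for 370 of the risen genes (80.1%) and 304 of the fallen ones (76.6%), against 39.1% of all genes. The 2 h departure was called for 40 of the 462 risen and 48 of the 397 fallen genes, against 6.02% of all genes. The 1 h and 3 h arrays enter this measure too, so these counts are also a description.

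Taken alone, the condition without P-factor called 312 genes (6.5%), 166 higher (3.46%) and 146 lower (3.04%) at 3 h. The condition with P-factor called 353 (7.36%), 188 higher (3.92%) and 165 lower (3.44%). Both called 171 genes, 54.8% of the first list and 48.4% of the second, all 171 in the same direction. Of the 462 genes that rose over both conditions 461 were higher at 3 h in each, and of the 397 that fell 395 were lower in each. The mean of the 2 conditions picked these genes, so this agreement in sign was largely set in advance. Counts within a condition rest on 2 pairs of arrays. Without P-factor the count was 71 or 52 without its series 1 or 2, and the balance of directions turned, with 27 higher and 44 lower without series 1 and 15 higher and 37 lower without series 2. With P-factor it was 226 or 101 without its series 1 or 2, and 201 or 210 without series 1 or 2 of the other condition, which lends its spread to the fit.

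A test of the difference between the conditions called 1 gene (0.0208%), SPBC8E4.03, and 205 genes had an unadjusted p below 0.05 (4.27% of all genes). The standard error of this difference had a median of 0.35. SPBC8E4.03 was at 3.48 and 4.89 without P-factor and 0.28 and 0.10 with it at 1 h. At 3 h it was at 1.40 and 3.18 without P-factor and 0.28 and 0.49 with it. It fell without P-factor (-1.89 ± 0.20) from a high level and stood near growth at both times with P-factor (0.19 ± 0.20), a difference of 2.09 ± 0.28 (adjusted p = 0.00155). Over the alternatives its adjusted p ran from 0.000992 to 1. It was 0.202 and 0.17 without series 1 and 2 without P-factor, and the call was also lost without series 2 with it, with series as a random block, with no block and with the 8 arrays alone. For the mating genes of this step the 2 conditions stood side by side as follows. ste11 rose by 2.76 ± 0.21 without P-factor and by 1.97 ± 0.21 with it (difference -0.78 ± 0.30, adjusted p = 0.99). mei2 changed by 2.93 ± 0.58 and 3.23 ± 0.58 (difference 0.30 ± 0.82, adjusted p = 0.99). mam2 changed by 2.54 ± 0.54 and 1.99 ± 0.54 (difference -0.55 ± 0.76, adjusted p = 0.99). A p that misses the threshold does not show that the conditions changed alike.

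**Figure D5:**
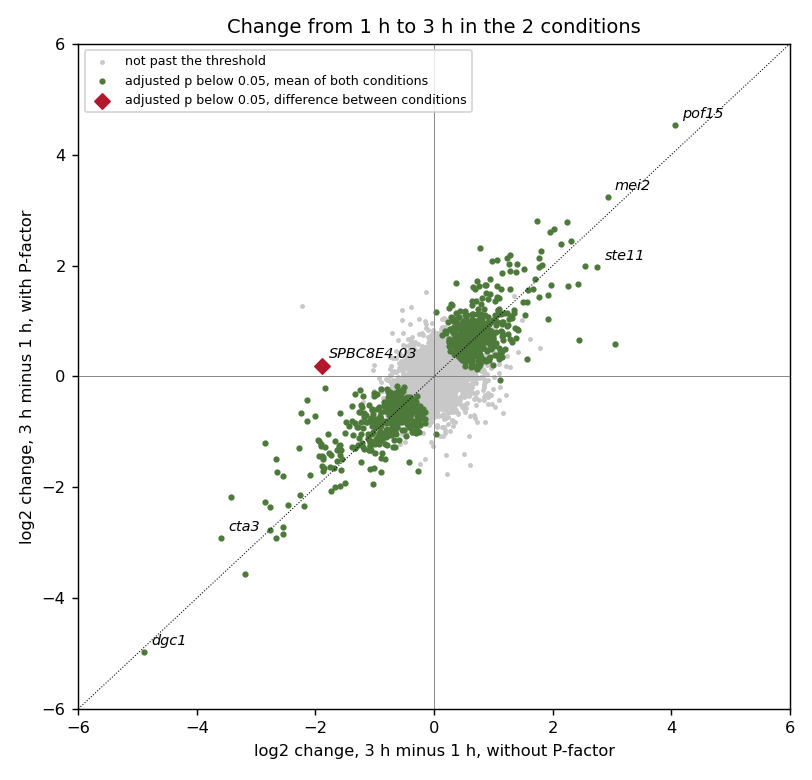
Log2 change from 1 h to 3 h without P-factor (horizontal axis) and with it (vertical axis), 1 point for each gene tested. Green points passed at an adjusted p below 0.05 for the mean of both conditions, grey points did not, the diamond is SPBC8E4.03, the 1 gene called for the difference between conditions, and the dotted line marks equal changes. The green points lie in the upper right and lower left quadrants with few exceptions.

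The remaining lists held few calls. Of 36 genes of nutrient signalling 2 rose (5.56%) and 3 fell (8.33%). Without series 1 or 2 without P-factor, or series 1 or 2 with it, 1, 0, 1 and 3 rose and 0, 1, 2 and 1 fell. The risen genes included gaf1, of a GATA factor active under nitrogen shortage (0.49 ± 0.17). The fallen ones included npr3 (-0.67 ± 0.17) and wat1 (-0.58 ± 0.13). Of 13 subunits of the vacuolar ATPase 1 rose, vma3 (0.40 ± 0.13). Among genes named for meiosis, mug147 (-1.20 ± 0.33) and meu29 (-0.95 ± 0.23) fell and meu31 rose (0.89 ± 0.28). The call of meu29 ended without series 1 with P-factor, and that of wat1 without series 1 without P-factor. The call of mug147 ended without series 2 without P-factor or without series 2 with P-factor, and that of meu31 without series 1 without P-factor or without either series with P-factor. The calls of gaf1, npr3 and vma3 ended without any 1 of the 4 series.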

How the data were processed

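The arrays, the members and the gene lists were chosen with earlier results of these data known. Per the labels, each array compared starved cells in Cy5 with growing cells in Cy3, and the deposited numbers were read as log2 of Cy5 over Cy3. The log base and the authors' background and normalization steps are not given in the sources used here, and a natural logarithm would change every fold. No dye swap was labelled, and the labels do not say whether the arrays of a series shared 1 growing RNA. The number of arrays limits the precision.

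The platform's gene table gave 1 gene for 4868 of 5188 probes, several for 22 and no entry for 298. A gene with several probes (4 of 4819 genes) got their average, and 4793 genes took their symbols from RefSeq. Each array was centred on its median, -0.115 to 0.073 on the 8 arrays of 1 h and 3 h. Genes measured on at least 24 of 32 arrays were tested, except 14 whose missing values left a term of the model without data.

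Means for each condition and hour were fitted to all 32 arrays in limma 3.58.1 (R 4.3.3), with the array series as a fixed block, 14 residual and 6.05 prior degrees of freedom. Tests were two-sided with Benjamini-Hochberg adjustment over 4797 genes and a threshold of 0.05. The pairing comes from the array numbers in the labels. It was checked by correlating, over genes, the deviations of 1 h and 3 h arrays from their group means within a series. This gave 0.656 and 0.658 without P-factor and 0.357 and 0.355 with it. Each group held only a pair of arrays, so within a condition the deviations of the series mirror each other. The values of a condition are therefore 1 check, apart from missing values. The fit was also run on data with known changes, simulated from the model itself with noise independent between arrays. Such data cannot show an effect of dependence between arrays. Of the genes given a log2 change of 1 over both conditions, 89% were recovered. Of those given a log2 difference of 1 between the conditions 24% were recovered, and 90% at a difference of 2.

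Genes named were the 12 largest called changes in each direction with the same sign in 4 series, up to 4 called members of each of 37 lists, up to 8 called differences between conditions in each direction, the 6 largest called 2 h departures in each direction, and 12 genes named in any case. The alternatives were a random block, no block, the 8 arrays alone, no centring, scaling, quantile normalization, array weights, complete genes, robust moderation and leaving out each series. Genes whose missing values left a term without data dropped out of a fit without 1 series (4676 to 4730 genes stayed). Their calls were not tested there. Figures were drawn with matplotlib 3.10.9 in Python 3.11.15.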

Additional observations from a re-analysis of the deposited data

Results flagged for a closer look

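Among the named genes and the lists, 7 results had 1 series far from the other 3 by Dixon's test. Chance alone gives this in about 1 in 20 groups. All named genes and 37 lists were examined, so 7 flags are no more than chance alone would give. They are listed as a description. The change of SPBC1271.07C from 1 h to 3 h was lowest in series 1 with P-factor, at -3.95 against -3.22 to -3.14 in the other series. That of SPAC186.06 was highest in the same series, at -1.73 against -2.87 to -2.81. The change of exg3, of a glucanase, was highest in series 2 without P-factor, at 1.48 against 0.30 to 0.39. That of atf1 was highest in series 1 with P-factor, at 1.35 against 0.08 to 0.30, and only just passed the test. Among list medians, that of nitrogen uptake was highest in series 2 with P-factor, at 0.17. The median of the core stress genes was lowest in the same series, at -0.69 against 0.16 to 0.29 in the other series, and the median of the cell wall genes was highest in series 2 without P-factor, at 0.23.

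By the test of the difference itself, 1 gene changed differently between the conditions. The change of SPBC8E4.03 was 2.09 higher with P-factor than without it, and with P-factor its ratio lay between 0.10 and 0.49 at both hours.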

How the results depend on the processing

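The 1 h and 3 h arrays of 1 series deviated together, in a check with 1 separate value for each condition. Array series therefore entered as a fixed block. The share of tested genes called for 3 h minus 1 h was then 17.9% over both conditions, 6.5% without P-factor and 7.36% with it, with 0.0208% for their difference and 6.02% for the 2 h departure. With no replicate block these shares were 6.78%, 1.58%, 1.43%, 0% and 1.97%. With the 8 arrays alone the first 4 were 8.94%, 2.03%, 2.26% and 0%, and the 2 h departure could not be computed. With a random replicate block the difference was called for 0% of genes. In these 3 settings limma gave 83, 188 and 184 genes an unadjusted p below 0.05 for the difference. Array weights gave 2.9% with P-factor and 3.21% for the 2 h departure, and scaling and quantile normalization each gave 3.96% for the latter. Leaving out 1 series gave 6.94% to 14.3% over both conditions, 1.11% to 7.49% without P-factor, 2.14% to 4.83% with it, 0% to 0.128% for the difference and 1.49% to 4.57% for the 2 h departure. Of the genes called without P-factor, 53.2% were higher at 3 h, against 42.8% after quantile normalization, 35.5% with no replicate block, 35.1% with the 8 arrays alone, and 38% and 28.8% without series 1 and 2 of that condition. Of the 2 h departures 37.7% were high, and 47.8% in the values as deposited. In the other alternatives, series left out aside, the number of calls stayed within 1.5 times. For the named genes and their comparisons, 1563 of 1930 alternative values kept direction and side of the threshold, 364 lost the call, 3 gained one and 0 turned. The causes were not tested. Arrays give no read depth, and 2 pairs of arrays in each condition limit what the separate shares and the difference can show.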
